A study of Homo sapiens with 12 samples.

Results

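RNA polymerase III was followed in MDA-MB-231 cells through 9 of its subunit genes, POLR3A, POLR3B, POLR3C, POLR3D, POLR3E, POLR3F, POLR3G, POLR3GL and POLR3K, out of 18253 genes measured on the arrays. The set was chosen by gene name, and it was selected on earlier results of these same arrays, in which POLR3G was higher and POLR3GL lower after AGO2 silencing. The contrast of sirnaAGO2 with cntrl is therefore given as a description with no test for these genes. All 9 genes had at least 3 probes that passed the filter on dim signal, so none was lost from the comparisons.

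RNA polymerase III is the nuclear enzyme that makes transfer RNAs, the 5S ribosomal RNA and other short non-coding RNAs such as U6, 7SK and the RNA parts of RNase P and RNase MRP. POLR3A and POLR3B form its catalytic core, POLR3C and POLR3F belong with POLR3G or POLR3GL to a subcomplex needed for initiation, POLR3D and POLR3E form a pair that resembles the general factor TFIIF, and POLR3K serves in termination and RNA cleavage. POLR3G and POLR3GL are paralogs that occupy the same place in alternative forms of the enzyme. POLR3GL is found in most tissues, whereas POLR3G is known from stem cells and tumour cells and falls with differentiation.

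The study asked how the miR-145-5p targets of a breast cancer cell line depend on Ago2, the Argonaute protein that carries miRNAs in the silencing complex. MDA-MB-231 cells, an established line of triple-negative breast cancer, made up all 4 groups, with 3 arrays each. Per the labels, the oligonucleotides were a miR-145-5p precursor or its negative control at 5 nM, and Dicer-substrate siRNAs for AGO2 or the NC1 control at 500 pM for 72 h. The cntrl group served as the control, mimic145 received the miR-145 precursor, sirnaAGO2 the AGO2 siRNA, and sirnaAGO2+mimic145 both. The groups share 1 cell line and the same transfection, and no label says whether the replicates were separate cultures, so p-values measure the spread between these samples, which may be technical. A single AGO2 reagent was used in both silenced groups, so loss of AGO2 and any other effect of that reagent cannot be told apart.

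AGO2 itself, read by 19 probes, was at a log2 signal of 9.21, 9.14 and 9.01 in cntrl and 8.35, 8.44 and 8.42 in sirnaAGO2. It read 9.44, 9.36 and 9.39 in mimic145 and 8.27, 8.35 and 8.41 with both agents. The silenced and unsilenced arrays did not overlap, and AGO2 mRNA signal was left at 61.0% of cntrl (limma adjusted p = 0.00491) and 48.1% of mimic145 (limma adjusted p = 0.000783). The 12 arrays had 60.5% to 77.3% of their spots well above background, and no spot was saturated. The 6 basal markers of this line, among them VIM and CAV1, were measured on all arrays, and of 6 luminal markers 4 had kept probes, with cntrl log2 signals of 6.97 for ESR1, 9.65 for GATA3, 8.20 for CDH1 and 7.68 for ERBB2, while PGR and FOXA1 had none. The markers of leukocytes (PTPRC, 6.83), endothelium (PECAM1, 6.24) and fibroblasts (COL1A1, 8.41) had kept probes too, so the markers of other cell types were not absent by this filter, and their part in the results was not tested. Arrays came in pairs on 6 slides, each with 1 replicate number, and the silenced and unsilenced groups were never on the same slide. Each silencing contrast is therefore also a contrast of slides. With slide as a random block in limma, the genes past the threshold in sirnaAGO2+mimic145 against mimic145 fell from 788 to 90. On every slide the array without the mimic was at position 1 and the array with it at position 2. Each mimic contrast is therefore also a contrast of position, and the part of position was not tested.

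The sequence that the mimic adds is shown because every contrast of the mimic rests on it. Mature miR-145-5p is taken from RefSeq (GRCh38.p14, chr5:149430661-149430683, plus strand), with the seed, bases 2 to 8, in capitals.
hsa-miR-145-5p: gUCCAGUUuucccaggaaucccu

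POLR3G, the subunit of the stem and tumour cell form, was higher and POLR3GL, the subunit of the general form, lower in sirnaAGO2 than in cntrl. These are the values that chose the genes. The POLR3G log2 signal, a mean over 6 probes, was 7.53, 6.84 and 7.47 in the cntrl arrays and 8.51, 8.05 and 8.33 in the sirnaAGO2 arrays. All sirnaAGO2 arrays were above all cntrl arrays, and the difference of 1.01 (SE 0.14), or 2.02-fold, ranked 7 among the rises of 18253 genes. The POLR3GL log2 signal, a mean over 7 probes, was 9.86, 9.80 and 9.51 in cntrl and 7.99, 8.39 and 8.25 in sirnaAGO2. Again the groups did not overlap, and the difference of -1.51 (SE 0.14), which left 35.1% of the cntrl signal, ranked 2 among the falls. With normexp background correction the POLR3G difference was smaller, at 0.66, and that of POLR3GL was -1.29.

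**Figure D1:**
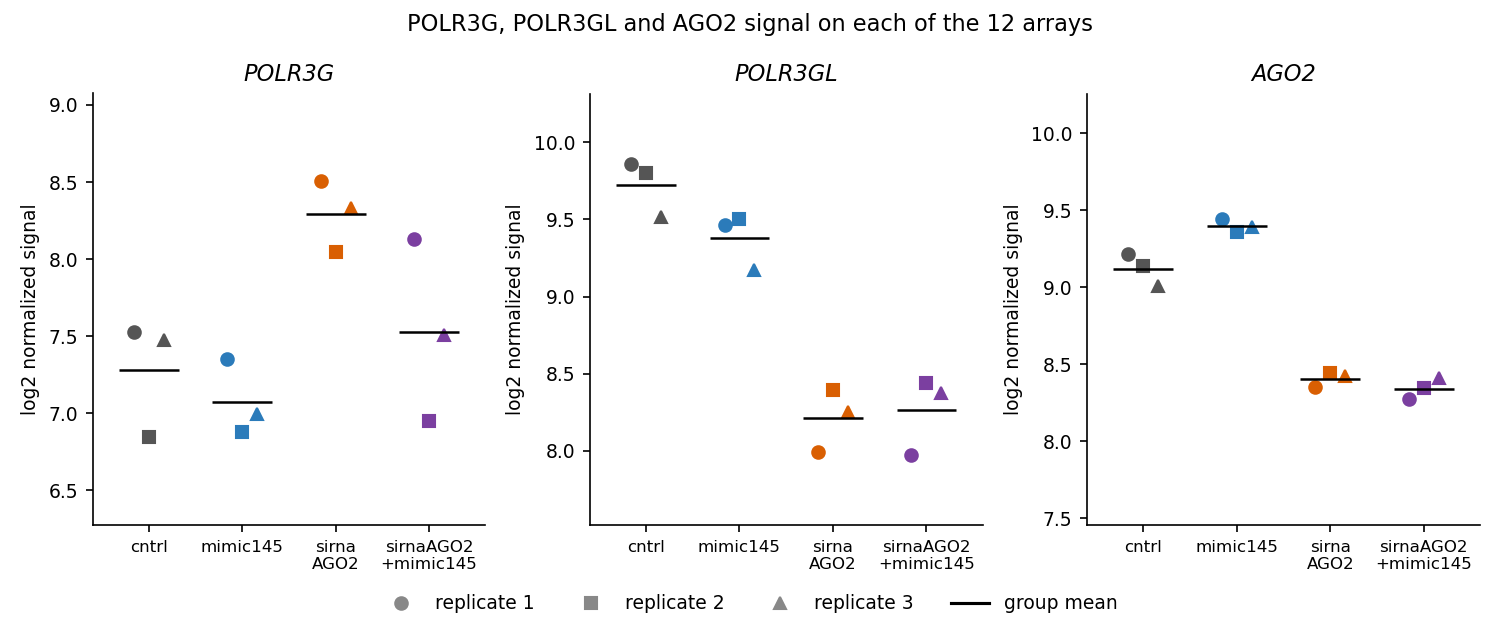
Log2 normalized signal of POLR3G, POLR3GL and AGO2 (vertical axes, each 2.8 log2 units tall) on each array of the 4 groups, with 1 symbol per replicate and a line at the group mean. POLR3GL sits at 7.97 to 8.44 on the 6 silenced arrays and at 9.17 to 9.86 on the 6 unsilenced arrays, while POLR3G is highest in sirnaAGO2 and spread from 6.95 to 8.13 in sirnaAGO2+mimic145.

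Silencing in the presence of the mimic used 6 other arrays, and gave a comparison of sirnaAGO2+mimic145 with mimic145 that shares no sample with the contrast above. POLR3GL fell here as well. Its log2 signal was 9.47, 9.50 and 9.17 in mimic145 and 7.97, 8.44 and 8.37 in sirnaAGO2+mimic145. The groups did not overlap, the pairs of equal replicate number differed by -1.49, -1.07 and -0.80, and 46.0% of the signal was left. The difference of -1.12 (SE 0.14) passed the threshold (limma adjusted p = 0.00690) and ranked 25 among the falls of all genes. It passed in each of the 12 fits that left out 1 array (adjusted p from 0.00868 to 0.0421), but not when all 4 arrays of a replicate number were left out, with adjusted p = 0.0950, 0.107 and 0.0872 without replicates 1, 2 and 3. With only the 6 arrays compared in the limma fit it was 0.212, where 0 of 18253 genes passed and 2742 had an unadjusted p under 0.05. An exact two-sided permutation test of the same arrays gave p = 0.1, the smallest that 3 against 3 allows. The genes were chosen for their response to AGO2 silencing, and it is not recorded whether the arrays with the mimic were looked at for that choice. This test can therefore not be taken as independent of the choice, and the main limma fit took its spread from all 12 arrays.

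POLR3G did not pass in the same comparison. Its log2 signal was 7.35, 6.88 and 6.99 in mimic145 and 8.13, 6.95 and 7.51 in sirnaAGO2+mimic145. Replicate 2 of the doubly transfected cells lay inside the mimic145 range, so the groups overlapped, although each pair was higher, by 0.78, 0.07 and 0.51. The difference was 0.46 (SE 0.14), a ratio of 1.37, with limma adjusted p = 0.106, and the exact two-sided permutation test gave p = 0.3. Restricted to the 3 probes that were well above background on all 12 arrays, the log2 signal was 8.33, 7.91 and 7.75 in mimic145 and 8.96, 8.30 and 8.58 in sirnaAGO2+mimic145. Those values overlapped by 1 array, and their difference of 0.62 passed (limma adjusted p = 0.00479). That test cannot be taken as independent of the choice either. Scaling by the 75th percentile also carried the 6-probe mean past the threshold, at 0.50 (limma adjusted p = 0.0416), and in 23 of 25 alternatives it did not pass. Whether the rise was the same size with and without the mimic was not tested, since that difference contains the contrast that chose the gene.

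Read as a shift, the change of POLR3G minus that of POLR3GL was 2.85, 2.61 and 2.12 log2 units in the pairs of sirnaAGO2 and cntrl. It was 2.27, 1.14 and 1.31 in the pairs of sirnaAGO2+mimic145 and mimic145. The first 3 are the values that chose the pair and carry no weight of their own, and their mean was 2.53 (SD 0.37). The other 3 had a mean of 1.58 (SD 0.61). Signals of different probes are not on 1 scale, so these values do not say which paralog was the more abundant in any group.

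The probes of each gene were examined singly. POLR3GL was lower on 7 of 7 probes in both silencing comparisons, at -1.81 to -1.17 log2 units without the mimic and -1.30 to -0.72 with it. Of the 6 POLR3G probes, 1 passed the filter through the sirnaAGO2 arrays alone, the group in which the gene was high, and it differed by 1.55 without the mimic and -0.22 with it. The other 5 probes were higher by 0.77 to 1.12 without the mimic and by 0.40 to 0.76 with it. The 3 probes of POLR3G above background on all arrays gave 0.40, 0.69 and 0.76 with the mimic. A further 2 POLR3G probes did not pass the filter, and differed by 0.86 and 0.50 without the mimic and by -0.28 and -0.06 with it. Kept probes above background on every array were 3 of 6 for POLR3G and 6 of 7 for POLR3GL.

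**Figure D2:**
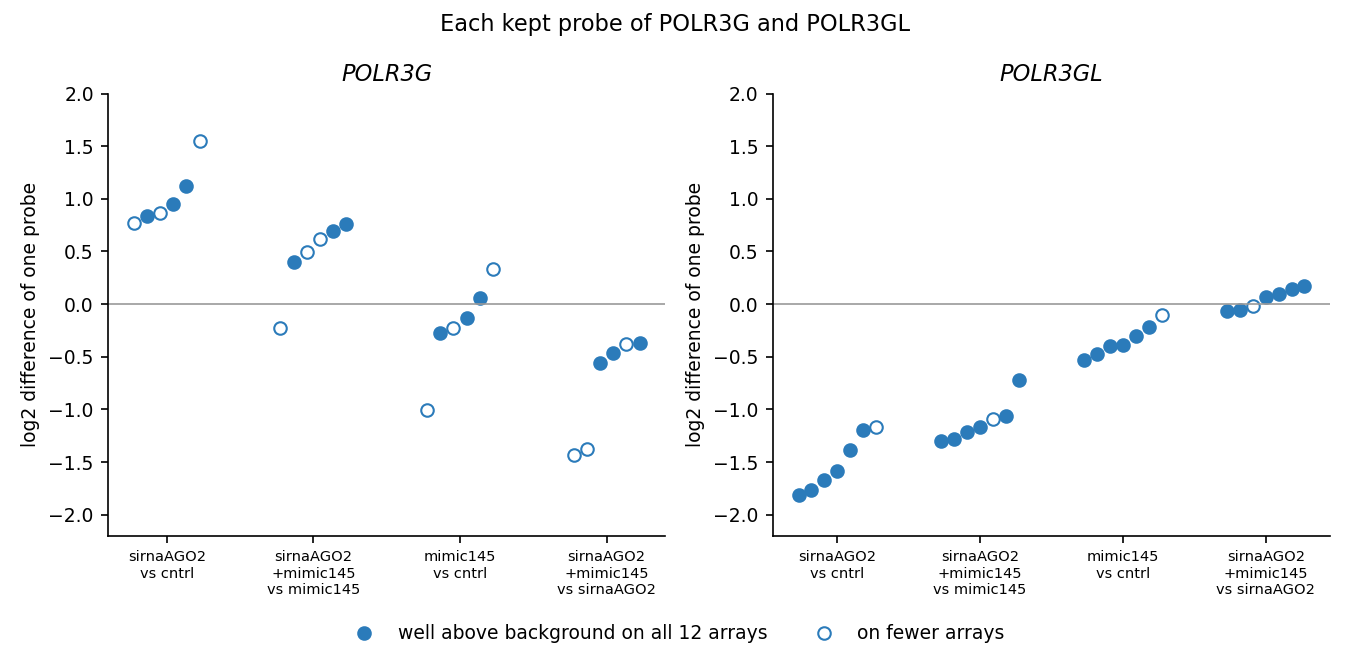
Log2 difference of each kept probe of POLR3G (6 probes) and POLR3GL (7 probes) in 4 comparisons, filled where the probe was well above background on all 12 arrays and open where it was on fewer. All POLR3GL probes lie below 0 in both silencing comparisons, and the POLR3G probe below 0 for silencing with the mimic is the 1 that passed the filter through the sirnaAGO2 arrays alone.

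POLR3GL lies on chromosome 1 (GRCh38.p14, chr1:145964690-145978848) and POLR3G on chromosome 5 (chr5:90473929-90514557), so the paralogs do not share a locus. The files name a transcript for each probe and give no position within it. The promoter of POLR3GL is printed because this gene had the largest fall of the 9, from RefSeq (GRCh38.p14, chr1:145964440-145964739, plus strand), 250 bases before to 50 after the gene start.
POLR3GL: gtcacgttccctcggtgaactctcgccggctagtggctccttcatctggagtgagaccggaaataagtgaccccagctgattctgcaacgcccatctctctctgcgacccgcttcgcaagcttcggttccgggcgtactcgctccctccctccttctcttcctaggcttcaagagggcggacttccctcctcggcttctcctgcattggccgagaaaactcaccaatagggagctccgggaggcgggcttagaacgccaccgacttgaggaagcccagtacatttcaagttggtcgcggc
The next gene on the higher coordinate side, TXNIP, which encodes the thioredoxin-interacting protein, also fell with silencing in the presence of the mimic. Its differences were -1.21 without the mimic and -0.96 (SE 0.18) with it, read by 9 probes (limma adjusted p = 0.0243 with the mimic, a call that held in 14 of 25 alternative settings). On the other side ANKRD34A, read by 1 probe, differed by -0.08 and -0.40. It was higher with the mimic, by 1.23 in unsilenced cells (limma adjusted p = 0.00120) and 0.90 in silenced cells (limma adjusted p = 0.0199). MBLAC2, whose span overlaps the start of POLR3G, differed by -0.01 and -0.11 after silencing without and with the mimic. MBLAC2 did not pass in the tested silencing comparison (limma adjusted p = 0.553), and LYSMD3 beyond the other end differed by 0.02 and -0.09.

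Among 13320 genes with at least 3 kept probes, those whose signal ran closest to POLR3GL over the 12 arrays were CHPT1 (Pearson r = 0.993), COMMD8 (r = 0.972) and SNAPC1 (r = 0.970). CHPT1, a choline phosphotransferase of phosphatidylcholine synthesis, differed by -1.07 and -0.79 after silencing without and with the mimic, and COMMD8 by -1.67 and -1.72. For POLR3G the closest were SSX2IP (r = 0.974), MAN2A1 (r = 0.964) and MCTP1 (r = 0.962). MAN2A1, a mannosidase of N-glycan processing in the Golgi, differed by 0.46 and 0.37, each less than POLR3G. These correlations are descriptions over 12 arrays that share 1 cell line, slides and normalization.

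**Figure D3:**
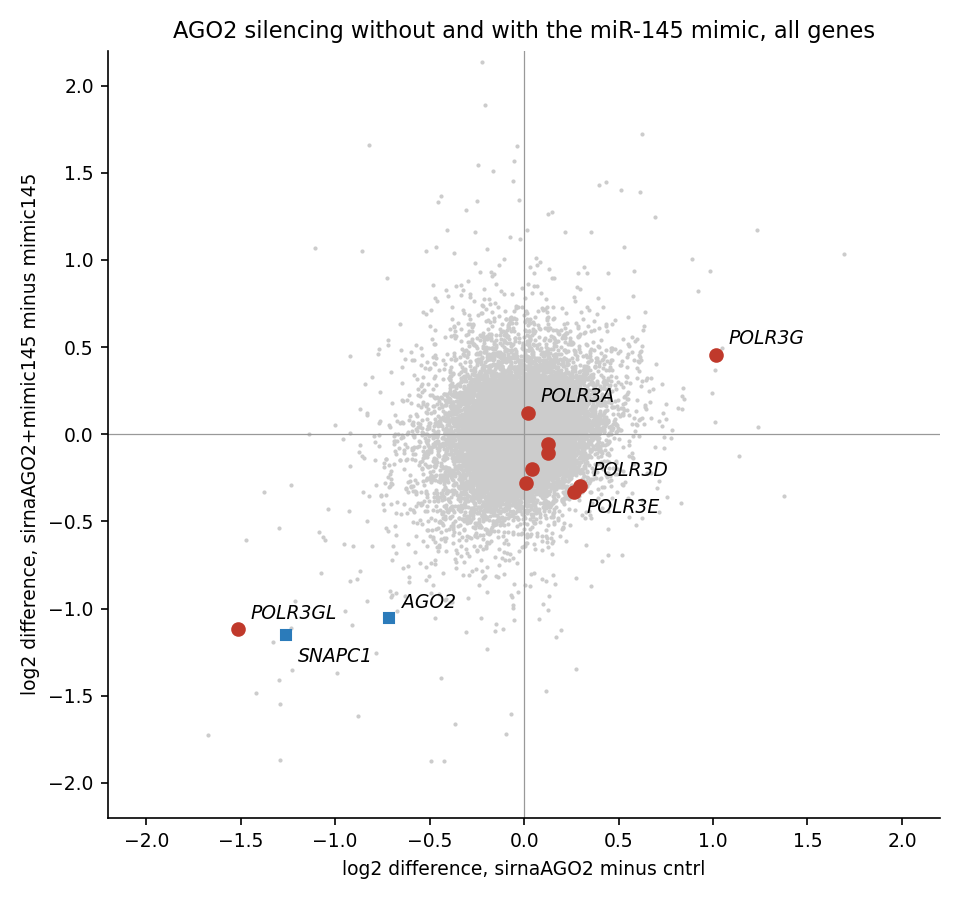
Log2 difference of every measured gene after AGO2 silencing without the mimic (horizontal, sirnaAGO2 minus cntrl) and with it (vertical, sirnaAGO2+mimic145 minus mimic145), with the 9 subunit genes as red circles and AGO2 and SNAPC1 as blue squares. POLR3GL is at -1.51 and -1.12 and POLR3G at 1.01 and 0.46, and the other 7 subunit genes lie between -0.33 and 0.30 on both axes. The horizontal values of POLR3GL and POLR3G are those that chose the pair.

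The mimic was then compared within each arm. In unsilenced cells POLR3GL differed by -0.34 (SE 0.14) between mimic145 and cntrl, the mimic145 arrays at 9.17 to 9.50 lay just below the cntrl arrays at 9.51 to 9.86, and 7 of 7 probes were lower, but the gene did not pass (limma adjusted p = 0.114). It passed in 2 of 25 alternatives, among them normexp, at -0.32 (limma adjusted p = 0.0413). POLR3G differed by -0.21 (SE 0.14) with overlapping groups (limma adjusted p = 0.331). Both genes were part of the choice through their cntrl arrays.

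In silenced cells POLR3G was lower with the mimic. The sirnaAGO2 arrays, at 8.51, 8.05 and 8.33, and the sirnaAGO2+mimic145 arrays, at 8.13, 6.95 and 7.51, overlapped by a single array, and all 3 pairs were lower, by 0.38, 1.10 and 0.82. The difference of -0.77 (SE 0.14) passed (limma adjusted p = 0.0212). The sirnaAGO2 arrays also chose this gene for being high, so this test is not independent of the choice. The probe kept through those arrays alone was favoured by the filter to read lower elsewhere, and differed by -1.44, while the other 5 ran from -1.38 to -0.37. The size depended on the dim probes, and was -0.47 on the 3 probes above background on all arrays (limma adjusted p = 0.0145). The call ended without sirnaAGO2 replicate 2 (-0.69, adjusted p = 0.110), sirnaAGO2+mimic145 replicate 2 (-0.62, 0.0692), sirnaAGO2 replicate 3 (-0.76, 0.0882) or sirnaAGO2+mimic145 replicate 3 (-0.73, 0.0921). It also ended when the replicate block was dropped (adjusted p = 0.237). The share of spots well above background moved with it, at 67.9%, 60.5% and 70.8% in sirnaAGO2+mimic145 against 71.0%, 69.1% and 74.1% in sirnaAGO2, and its part in the result was not tested. POLR3GL differed by 0.05 here (SE 0.14, limma adjusted p = 0.849), with arrays of 7.97 to 8.44 against 7.99 to 8.39. POLR3G was the only 1 of the 9 genes past the threshold in this comparison, against 7.28% of all genes.

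Of the other 7 genes, 4 passed with the mimic in unsilenced cells. Between mimic145 and cntrl 3 of the 9 genes rose (POLR3C, POLR3D and POLR3E) and 1 fell (POLR3A), so that 4 of 9 passed where 22.6% of all genes did, a description that claims nothing for the set as a whole. The median difference of the 9 was 0.22 beside 0.01 over all genes. This comparison shares the cntrl arrays with the contrast that chose the pair.

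POLR3E, of the TFIIF-like pair, rose the most. Its log2 signal was 7.14, 7.24 and 7.15 in cntrl and 7.98, 7.79 and 7.83 in mimic145. The groups lay apart, 19 of 21 probes were higher, and the difference was 0.69 (SE 0.09, limma adjusted p = 0.00114). Its size fell to 0.43 with normexp, where it still passed, and the median over probes, at 0.47, did not pass (limma adjusted p = 0.107).

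POLR3D, its partner, read 8.11, 8.16 and 7.89 in cntrl and 8.53, 8.59 and 8.50 in mimic145. Every mimic145 array was above every cntrl array, and the difference of 0.49 (SE 0.07) passed (limma adjusted p = 0.00153), as it did in each of the 12 fits without 1 array.

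POLR3C, of the initiation subcomplex, read 9.64, 9.62 and 9.68 in cntrl and 9.90, 9.85 and 9.86 in mimic145. The groups lay apart and 15 of 15 probes were higher, with a difference of 0.22 (SE 0.07, limma adjusted p = 0.0468). POLR3A, the largest catalytic subunit, read 7.67, 7.45 and 7.73 in cntrl and 7.40, 7.32 and 7.45 in mimic145. These groups overlapped narrowly, 24 of 29 probes were lower, and the difference was -0.23 (SE 0.07, limma adjusted p = 0.0419). Both calls lay near the threshold, and each was lost in 9 of the 12 fits that left out 1 array, with adjusted p up to 0.163 for POLR3C and 0.142 for POLR3A, and without the replicate block (0.127 and 0.206).

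The remaining members did not pass. POLR3B, the second catalytic subunit, differed by 0.24 (SE 0.10, limma adjusted p = 0.124) with cntrl arrays of 7.23 to 7.59 and mimic145 arrays of 7.56 to 7.69. POLR3F, of the initiation subcomplex, differed by 0.32 (SE 0.11, adjusted p = 0.0729) and was higher on 7 of 7 probes, but its mimic145 arrays ran from 7.70 to 8.26 across the cntrl range of 7.36 to 7.73. POLR3K, the cleavage subunit, differed by 0.15 (SE 0.08, adjusted p = 0.225).

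**Figure D4:**
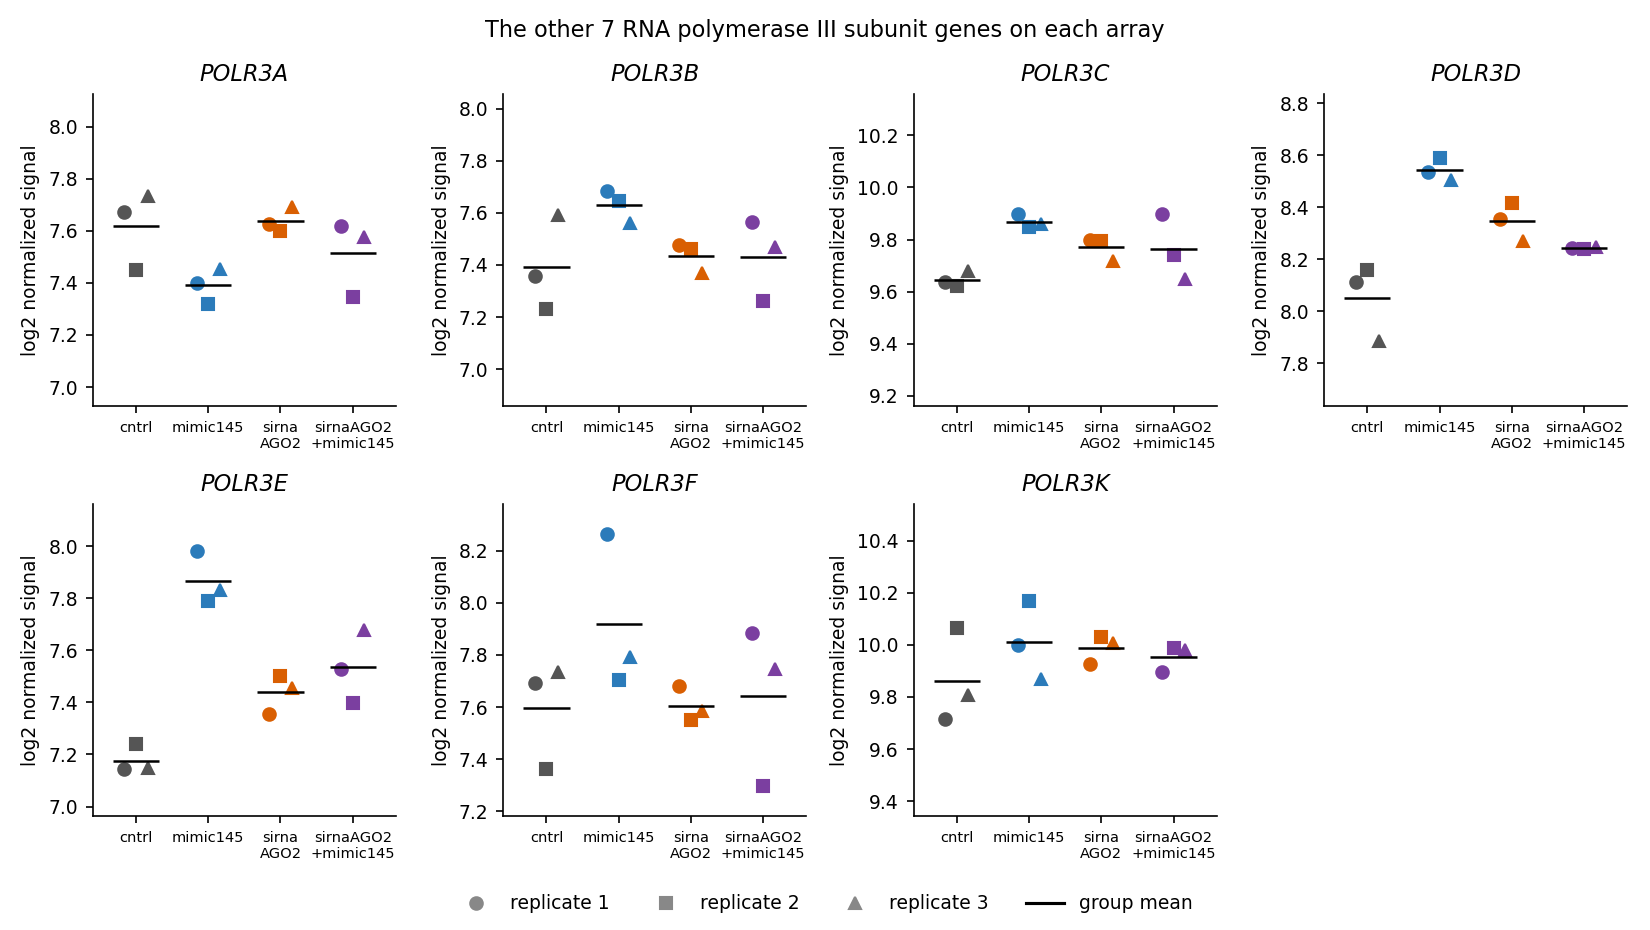
Log2 normalized signal of the 7 subunit genes other than POLR3G and POLR3GL (vertical axes, each 1.2 log2 units tall) on each array of the 4 groups, with 1 symbol per replicate and a line at the group mean. POLR3D and POLR3E stand highest in mimic145, at 8.50 to 8.59 and 7.79 to 7.98, and the sirnaAGO2+mimic145 arrays of both lie below that.

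The core genes were then compared after AGO2 silencing, and POLR3D fell in the tested comparison. Against cntrl, the sirnaAGO2 values were 0.02 for POLR3A, 0.04 for POLR3B, 0.13 for POLR3C, 0.30 for POLR3D, 0.26 for POLR3E, 0.01 for POLR3F and 0.12 for POLR3K, as a description. With the mimic present, sirnaAGO2+mimic145 against mimic145, 2 of 9 genes fell (POLR3D and POLR3GL) and none rose, where 4.32% of all genes passed. POLR3GL was chosen for its fall after silencing, so this count claims nothing for the set. The median of the 9 was -0.20 beside 0.00 over all genes.

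POLR3D read 8.24, 8.24 and 8.25 in sirnaAGO2+mimic145, under the 8.50 to 8.59 of mimic145, and 7 of 7 probes were lower. Its difference of -0.30 (SE 0.07, limma adjusted p = 0.0477) lay at the threshold. It was lost in 11 of the 12 fits without 1 array (adjusted p up to 0.135), without the replicate block (0.189) and under each other scaling or background correction tried. On the 5 POLR3D probes above background on all arrays it was -0.17 (limma adjusted p = 0.177). POLR3E, at 7.53, 7.40 and 7.68 with both agents, lay wholly below its mimic145 arrays, yet its difference of -0.33 (SE 0.09) did not pass (limma adjusted p = 0.0764). POLR3A (0.12), POLR3B (-0.20), POLR3C (-0.11), POLR3F (-0.28) and POLR3K (-0.06) did not pass either, with adjusted p from 0.200 to 0.731. With the mimic in silenced cells none of the 7 core genes passed by limma, where 7.28% of all genes did. At an unadjusted p under 0.05 there were 0 of the 7, beside 5262 of 18253 genes. The differences of the core genes ran from -0.12 for POLR3A to 0.10 for POLR3E.

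**Figure D5:**
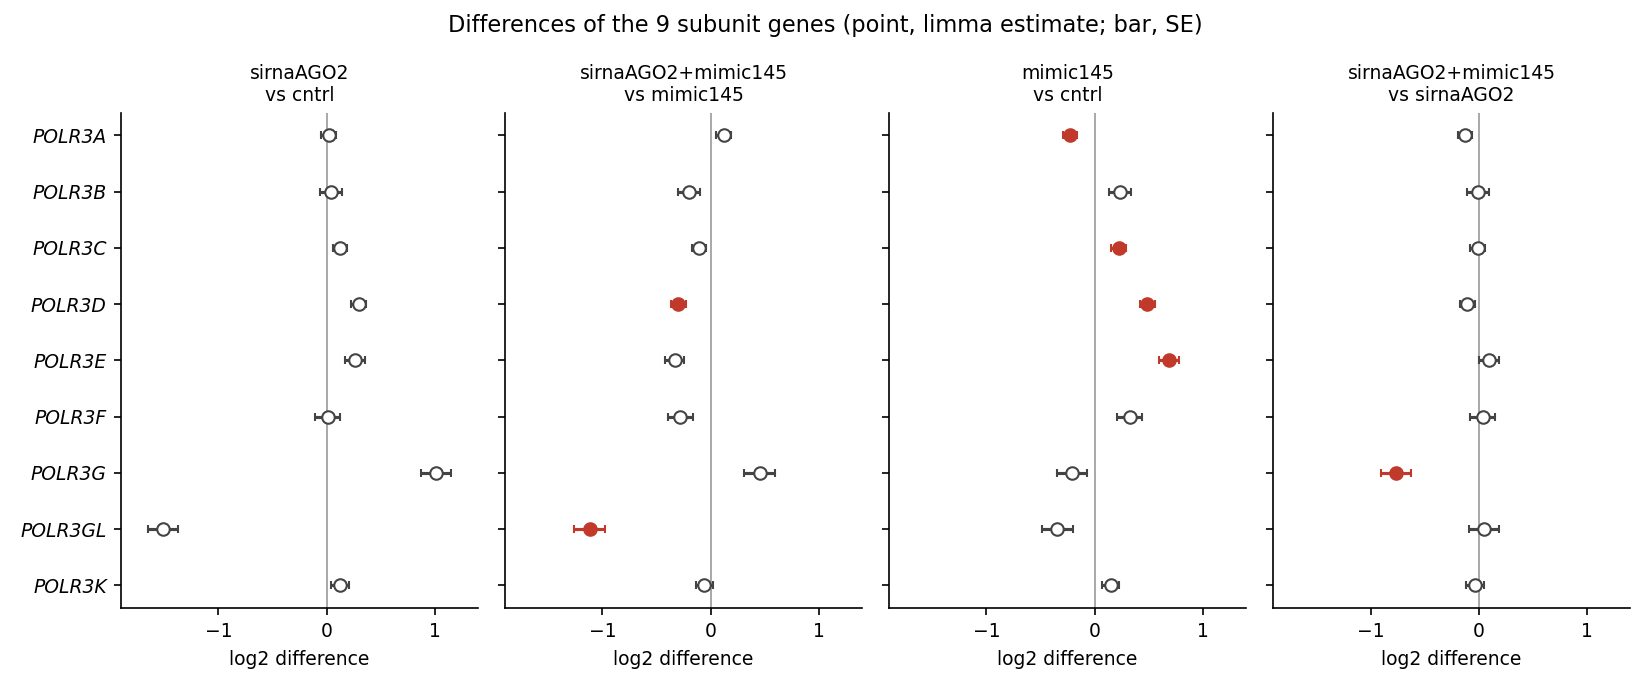
Log2 difference (horizontal) of each of the 9 subunit genes in 4 comparisons, as the limma estimate with its SE, filled red where the adjusted p was under 0.05 in the 3 tested comparisons. The first panel, which chose the genes, carries no test. POLR3GL is at -1.51 and -1.12 in both silencing panels, and POLR3D and POLR3E are at 0.49 and 0.69 in the mimic panel of unsilenced cells.

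Promoters of 7 of the 9 genes, all but POLR3D and POLR3G, were scanned in RefSeq, as 9 windows, each from 250 bases before to 50 after a start. The letters CACGTG, an E-box that reads alike on both strands, occurred in 3 of the 9 windows, 1 each of POLR3A, POLR3C and POLR3E, against 7.256% of 35116 windows of the same length, and the POLR3GL window printed above held none. The motif contains a CpG, and the 9 windows held 15 to 37 CpGs beside a median of 14 over all windows, so the shares are not matched on base composition. The 3 genes did not move as 1 group, since POLR3C and POLR3E rose and POLR3A fell with the mimic. The POLR3E promoter (GRCh38.p14, chr16:22297159-22297458, plus strand) is shown as that of the member with the largest rise, with CACGTG in capitals.
POLR3E: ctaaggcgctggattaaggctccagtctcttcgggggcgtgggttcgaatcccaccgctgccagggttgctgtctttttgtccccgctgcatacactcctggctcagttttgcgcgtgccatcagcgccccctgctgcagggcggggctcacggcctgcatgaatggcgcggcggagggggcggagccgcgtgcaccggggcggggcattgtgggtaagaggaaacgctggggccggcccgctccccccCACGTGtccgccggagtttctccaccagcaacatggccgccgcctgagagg

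A reference list of 8 other subunits of the enzyme, some of them shared with RNA polymerases I and II, was measured as well. With the mimic in unsilenced cells 2 of the 8 rose, POLR1C at 0.39 (SE 0.07, limma adjusted p = 0.00475) and POLR2F at 0.28 (SE 0.06, adjusted p = 0.0100), and none fell, a share close to the 22.6% of all genes. With silencing in the presence of the mimic 1 of the 8 fell where 4.32% of all genes passed, POLR2K at -0.31 (SE 0.07, limma adjusted p = 0.0482), a call that held in 1 of 25 alternative settings. With the mimic in silenced cells (7.28% of all genes) 0 of the 8 passed by limma. At an unadjusted p under 0.05 there were 0 of the 8, beside 5262 of 18253 genes. Over the 17 subunits reported, 5 rose and 1 fell with the mimic in unsilenced cells, where 22.6% of all genes passed. With silencing in the presence of the mimic 3 of the 17 fell and none rose, where 4.32% of all genes passed. These 3 were POLR3GL, which was chosen for its fall after silencing, POLR3D and POLR2K, so the count claims nothing for the set. The medians over the 17 were 0.19 and -0.13.

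The initiation factors that bring the enzyme to its genes were measured in full, 18 of 18. With silencing in the presence of the mimic only SNAPC1 of the 18 passed, where 4.32% of all genes did. SNAPC1, a subunit of the complex that binds the promoters of U6 and other small nuclear RNA genes, had log2 signals of 10.23 to 10.31 on the cntrl arrays and 10.03 to 10.39 on the mimic145 arrays. The sirnaAGO2 arrays ran from 8.93 to 9.12 and those with both agents from 9.04 to 9.19, so silenced and unsilenced arrays lay apart. The difference was -1.15 (SE 0.08, limma adjusted p = 0.000783) with the mimic and -1.26 without it. With the mimic in unsilenced cells GTF3C6 (0.45) and SNAPC2 (0.37) rose and BDP1 (-0.67) and GTF3A (-0.35) fell, so that 4 of 18 passed beside 22.6% of all genes. BDP1, a subunit of TFIIIB, also fell with the mimic in silenced cells, by 0.49 (SE 0.10, limma adjusted p = 0.0306), a call that held in 13 of 25 alternative settings. TBP, BRF1 and BRF2, the other TFIIIB subunits, passed in none of the 3 tested comparisons.

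Of 10 regulators and RNA-end factors, CSNK2A1 (0.35) and CSNK2A2 (0.52), catalytic subunits of casein kinase 2, rose with the mimic in unsilenced cells, 2 of 10 beside 22.6% of all genes. CSNK2A2 fell by 0.51 (SE 0.11, limma adjusted p = 0.0353) with silencing in the presence of the mimic, where 4.32% of all genes passed. The call held in 7 of 25 alternative settings. With the mimic in silenced cells 0 of the 10 passed by limma, where 7.28% of all genes did. At an unadjusted p under 0.05 there was 1 of the 10, beside 5262 of 18253 genes. MAF1, the general repressor of the enzyme, differed by 0.21, 0.07 and -0.02 in the 3 tested comparisons, and MYC, an activator, by -0.06, -0.05 and 0.01, and neither passed. The products of the enzyme were barely covered. Only RMRP and RPPH1 of 19 listed transcripts had a kept probe, 1 each, and neither passed, with differences of 0.28 (SE 0.14) and 0.05 (SE 0.23) after silencing in the presence of the mimic.

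As a comparison with the sister enzymes, 1 of 6 RNA polymerase I subunits (POLR1G, 0.59) and 2 of 7 RNA polymerase II subunits (POLR2C, 0.28, and POLR2G, 0.22) rose with the mimic in unsilenced cells, shares close to the 22.6% of all genes. The call of POLR2G held in 8 of 25 alternative settings. None of these genes passed by limma with silencing in the presence of the mimic (4.32% of all genes) or with the mimic in silenced cells (7.28%). At an unadjusted p under 0.05 there were 2 RNA polymerase I and 4 RNA polymerase II subunits with silencing in the presence of the mimic, beside 3929 of 18253 genes. With the mimic in silenced cells there were 2 and 0, beside 5262 of 18253 genes.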

How the data were processed

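Total RNA of 12 MDA-MB-231 samples was hybridised by the authors to Agilent SurePrint G3 Human Exon 2X400K arrays in 1 colour (Cy3). The deposited scanner files hold spot intensity from Agilent Feature Extraction 10.7.3.1, background-subtracted, per the file headers. The authors also deposited quantile-normalized log2 values, used as an alternative. The flags that the scanner files give for outlier, saturated and well-above-background spots (deposited as 0 or 1) set the filters.

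Control and outlier spots were left out, processed intensity was quantile normalized over the 12 arrays with a floor of 1, and log2 values were averaged over the spots of a probe. A probe was kept where some group had it well above background on each of its 3 arrays. Kept probes (142929) were averaged into 18253 genes by the transcript in the files, matched to RefSeq (GRCh38.p14), and 209671 of 233164 probes matched. limma 3.58.1 (R 4.3.3, data.table package 1.17.8) fitted the 4 groups with the replicate number as a block, with Benjamini-Hochberg adjustment over all genes and a threshold of 0.05. Samples of the same number tended to deviate together (r from 0.148 to 0.576 in 18 pairs), and each slide held 1 number. In 36 pairs of other number and other group r ran from -0.497 to 0.201, so the ranges overlapped. Figures were drawn with matplotlib 3.10.9 and pandas 2.3.3 in Python 3.11.15. The number of arrays limits the precision.

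Samples were grouped by their titles. The genes named were all 9 members, AGO2, genes of the pathway lists (those past the threshold, and TBP, BRF1, BRF2, MAF1 and MYC whatever their values), the 3 genes most correlated with POLR3G and with POLR3GL, and the adjacent genes. From the list of other subunits 1 gene and from the list of regulators 1 gene are not reported here and are left out of the counts, and the other lists are whole. Members and lists were chosen with earlier results of these data known. The 25 alternatives covered the block, slides, scaling, normexp (offset 50), the authors' values, probe filters, the median over probes, the arrays fitted, the methods' t-test, and leaving out each of 12 arrays or 3 replicate numbers. Pair comparisons that share arrays are given side by side.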

Additional observations from a re-analysis of the deposited data

Results flagged for a closer look

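Among the subunit genes, 4 showed a difference between arms in which every replicate pair moved one way in 1 arm and the opposite way in the other, and in each case the difference was not tested. For the mimic, this held for POLR3D, whose effect in silenced cells minus that in control cells was -0.595 on the log2 scale (0.49 in control cells and -0.11 in silenced cells). It also held for POLR3K, at -0.1817 (0.15 and -0.03). For silencing, it held for POLR3C, whose effect with the mimic minus that without it was -0.2315 (0.13 without the mimic and -0.11 with it). The same held for POLR3D, at -0.595 (0.30 and -0.30), and for POLR3E, at -0.5941 (0.26 and -0.33). The POLR3D values for the mimic and for silencing are the same difference of the 4 groups read from each side. How many of all genes meet the same rule was not counted, so the number of subunit genes that meet it claims nothing for the set. The mimic effects compare arrays on the same slide, and the silencing effects compare arrays on different slides. The part of the slides in these values was not tested.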

How the results depend on the processing

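The results of the 9 genes and of the other named genes past the threshold were recomputed under 25 alternatives (24 for ANKRD34A). The fall of AGO2 passed in 20 with the mimic and in 20 without it, and that of SNAPC1 in 20. Called values that depended most on the setting included 3 of the subunit genes. These were POLR3D with silencing in the presence of the mimic (passed in 2), and POLR3A (4) and POLR3C (7) with the mimic in unsilenced cells. Others were POLR2K (1), CSNK2A2 with silencing (7), POLR2G (8), AGO2 with the mimic in unsilenced cells (12) and CSNK2A1 (13). BDP1 with the mimic in silenced cells (13), TXNIP (14) and ANKRD34A with the mimic in silenced cells (14 of 24) were also among them. The fall of POLR3GL with silencing in the presence of the mimic passed in 20. It did not pass with only the arrays compared (-1.1194, adjusted p = 0.212), with the methods' t-test (-1.1194, adjusted p = 0.382), or without a replicate number, and the leave-one-out values ran from -1.2785 to -0.9332. POLR3G in that comparison passed with 75th percentile scaling (0.4953) and on the probes above background on all 12 arrays (0.6171), and in sirnaAGO2 against cntrl it moved to 0.6565 with normexp.

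The number of the 9 genes past the threshold depended on the setting. For mimic145 against cntrl (4 genes) it was 2 with no replicate block, 2 with no filter on dim probes, 2 with only the arrays compared, 1 with the median over probes and 0 with the methods' t-test, and 2 to 4 with arrays or replicate numbers left out. For sirnaAGO2+mimic145 against sirnaAGO2 (1 gene) it was 0 with no replicate block, 0 with only the arrays compared and 0 with the t-test, and 0 to 1 with arrays left out. For sirnaAGO2+mimic145 against mimic145 (2 genes) it was 1 with no replicate block, 1 with slide as a random block, 1 with normexp, 1 with the authors' values, 1 with the median over probes, 0 with only the arrays compared and 0 with the t-test, and 0 to 2 with arrays left out.

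Over all genes the numbers past the threshold in these comparisons were 4121, 1328 and 788, and fell with no replicate block to 1997, 78 and 100 and with slide as a random block to 3926, 1023 and 90. With only the arrays compared they were 1826, 0 and 0, and 0 in each with the t-test, with 3869, 2601 and 2216 at an unadjusted p under 0.05. Without a replicate number they were as low as 1211, 0 and 0. Scaling by the 75th percentile gave 2394 for the mimic in silenced cells, 1919 of them higher, against 775 of 1328, with the median of all genes moved to 0.11. Without the replicate block the falls of POLR3GL with silencing (adjusted p = 0.0122) and the rises of POLR3D and POLR3E with the mimic still passed.

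Small differences turned sign. For the mimic in silenced cells POLR3B was 0.1299 with 75th percentile scaling, 0.0164 with normexp, 0.0001 with the authors' values, 0.0876 on probes above background on all arrays and 0.0173 with the median over probes (left out, -0.0650 to 0.0933). POLR3C was 0.0331 with the authors' values (left out, -0.0674 to 0.0427), POLR3F -0.0844 with no filter on dim probes (left out, -0.0464 to 0.1821) and POLR3K 0.0259 with the median over probes (left out, -0.0763 to 0.0181). POLR3GL ran from -0.0700 to 0.1924 with arrays left out, and POLR3K with silencing in the presence of the mimic from -0.1425 to 0.0049. None of these passed, and the cause of the turns was not tested.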
